A study of Mus musculus with 6 samples.

Results

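Acid-base genes of the intercalated cell were examined in renal cortex from male mice. They comprised 10 genes, chosen by name as the array design lists them, of 36627 gene symbols on the array. The set held the anion exchangers Slc4a1, Slc26a4 and Slc4a9, the proton pump subunits Atp6v1b1, Atp6v0d2 and Atp6v1g3, the transcription factor Foxi1, the aquaporin Aqp6 and the ammonia transporters Rhcg and Rhbg. They were represented by 14 probes, of which 13 were tested, and each of the 10 genes had at least 1 tested probe. All 13 tested probes were well above background on all 6 arrays, so that RNA of these genes was measured in every sample, although in whole cortex fewer cells of a type and less RNA per cell cannot be told apart.

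Each of 6 mice was measured on its own one-colour array, 3 labelled db/m and 3 labelled db/db, all given as 16 weeks old. db/db mice on the C57BLKS/J background lack a functional leptin receptor and become obese and diabetic, whereas db/m mice carry 1 mutant copy and stay lean. The labels further call the first group control and the second model. The study's methods and the design text instead describe a comparison of HQD-treated with non-treated db/db mice. HQD is Huangqi decoction, an herbal preparation, given for 8 weeks by gavage. By the study's account, db/db mice without HQD and db/m mice were gavaged with the vehicle, sodium carboxymethylcellulose, over the same 8 weeks. Because labels and methods differ, the groups are called labelled db/m and labelled db/db throughout. What a difference compares depends on which description is right. Signals are given as log2 intensity after subtraction of each array's 75th percentile, and a negative difference means a lower mean in labelled db/m. Lepr, the leptin receptor gene, does not check the labels, since the db mutation alters splicing of 1 receptor form, and its 1 tested probe of 6 differed by 0.42 ± 0.29 (SE, n = 3 and 3, limma adjusted p = 0.447). Between 51.6% and 59.0% of non-control probes were well above background on an array, and the median intensity ranged from 76.0 to 112.

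Intercalated cells are scattered among the principal cells of the connecting tubule and collecting duct and adjust the acid and base content of urine. The type A cell secretes protons through a vacuolar ATPase (V-ATPase) on its apical side and returns bicarbonate to blood through the exchanger AE1, the product of Slc4a1. The type B cell does the reverse and secretes bicarbonate through pendrin, the product of Slc26a4. Foxi1 is the transcription factor on which the identity of these cells depends, and the ammonia transporters move ammonia into the urine, where it carries much of the acid load.

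Because array signal is read by 60-base probes, the bases below show what was measured for the genes on which the comparison turns. Positions are those of the array files on mm9, for which no gene annotation was used here, so that exon or UTR is not named. Probes of Atp6v0d2 and Atp6v1b1 that lie at a distance from the other probe or cross an intron are given whole, and the others by their first 30 bases, all in lower case and 5′ to 3′.
Slc26a4, chr12:32204766-32204825, minus strand: aggaaggactaatcacagagattcctgact
Rhbg, chr3:88047265-88047324, minus strand: gggagtcagacacccgggcctaattgctgc
Atp6v0d2, chr4:19805367-19805426, minus strand: agcagaatgcatctcacagaggcatcgaac
Atp6v0d2, second probe, chr4:19837769-19837828, minus strand: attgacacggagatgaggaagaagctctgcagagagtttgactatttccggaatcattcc
Atp6v1b1, chr6:83706880-83707858, plus strand: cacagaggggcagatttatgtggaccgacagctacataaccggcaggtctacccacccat
Slc4a1, chr11:102210256-102210315, minus strand: cccacaaggtctaagaaaagcgtttgccat
Aqp6, chr15:99435849-99435908, plus strand: agaatgctttggggaattaaatgctggtag
Aqp6, second probe, chr15:99434806-99434865, plus strand: aggccctccacttctgctgtaatgttgctt
The Atp6v1b1 probe spans 979 genomic bases and so reads spliced RNA. The Atp6v0d2 probes start 32.4 kb apart and gave differences in the same direction, whereas the Aqp6 probes did not show the same order of arrays.

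Most members had a lower mean in labelled db/m, but none of the differences passed the test across the array. Of the 10 genes, each read by its brightest tested probe, 8 had a negative difference and 2, Slc4a1 and Aqp6, a positive one. The median difference over the 10 genes was -0.28, against -0.03 over all 29890 tested probes and -0.14 over the brightest 25% of them. At a Benjamini-Hochberg adjusted p under 0.05 in limma, 0 member probes were called, and 0 (0%) of all tested probes. At an unadjusted p under 0.05, 4 of 13 member probes were lower in labelled db/m, namely Slc26a4, Rhbg and both probes of Atp6v0d2, against 10.8% of all tested probes. None was higher, against 6.90%, and 17.7% of all tested probes passed in either direction. Among the brightest 25% of probes the shares were 15.1% lower and 1.85% higher. No member reached the fold of 2 that the study's screen asks for together with an unadjusted p under 0.05, which 0.960% of the tested probes did. In 6 of the 13 member probes every array labelled db/m lay below every array labelled db/db, a pattern that 16.4% of all tested probes showed and 26.4% of the brightest 25%. No member showed the opposite separation, which 7.75% of all probes did. With 13 probes from 10 genes these counts are descriptions, and brighter probes lay lower in labelled db/m in general.

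**Figure D1:**
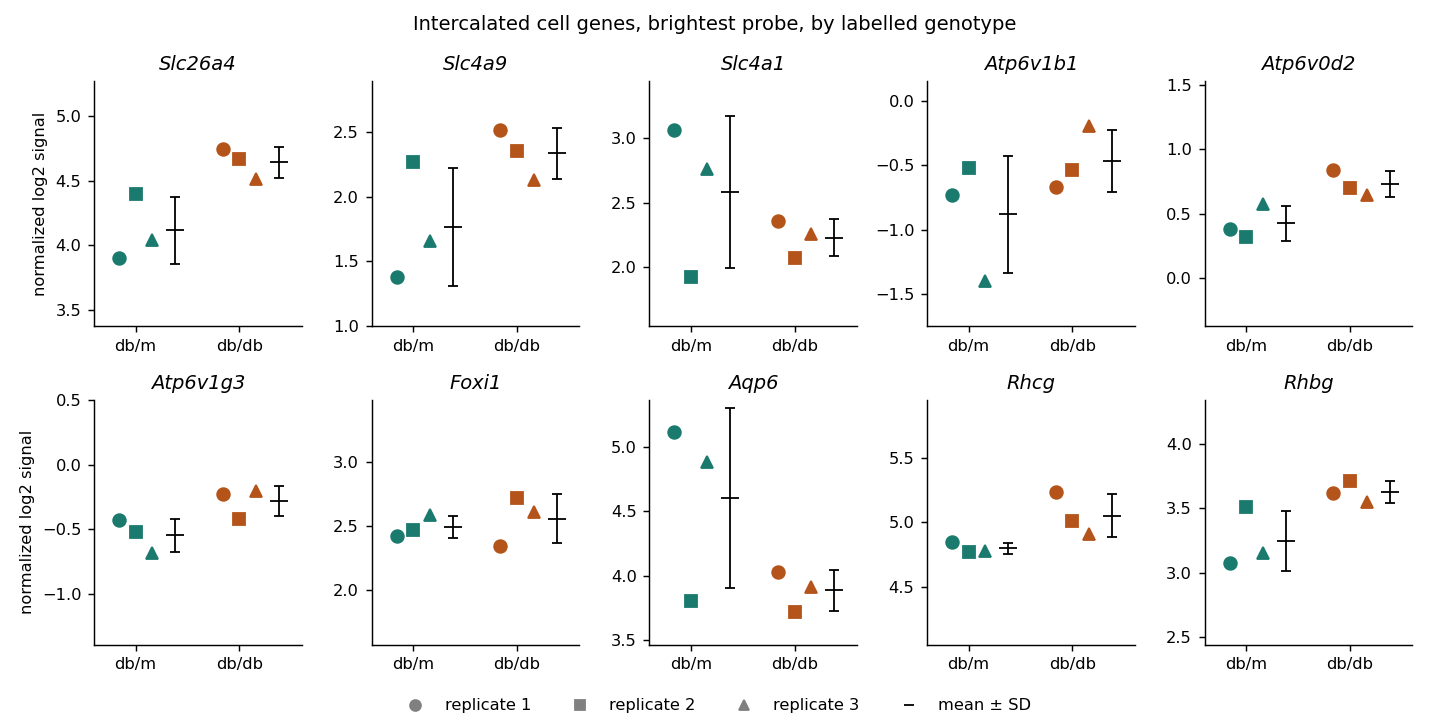
Normalized log2 signal (log2 intensity minus the array's 75th percentile) of the brightest tested probe of each gene on each array. Green symbols are the 3 arrays labelled db/m and brown symbols the 3 arrays labelled db/db. Symbol shapes give the replicate number, which was not taken to pair the groups, and bars give the mean ± SD. Every panel spans the same log2 range, and the groups do not overlap for Slc26a4, Atp6v0d2, Atp6v1g3, Rhcg and Rhbg, whereas for Slc4a1 and Aqp6 replicates 1 and 3 of labelled db/m lie above all other arrays.

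The exchangers of the type B and non-A, non-B intercalated cell lay lower in labelled db/m. For Slc26a4, which exchanges chloride for bicarbonate at the apical side, the normalized log2 signal was 3.90, 4.40 and 4.04 in labelled db/m and 4.75, 4.67 and 4.51 in labelled db/db. All 3 arrays labelled db/m were below the other 3, and replicate 2 was the nearest to them. The difference was -0.53 ± 0.16 (SE, 95% interval -0.90 to -0.15, adjusted p = 0.240 in limma), a 1.44-fold higher signal in labelled db/db. Slc4a9 encodes the basolateral exchanger AE4 of the same cells and gave 1.37, 2.27 and 1.65 in labelled db/m against 2.52, 2.36 and 2.13 in labelled db/db. Here replicate 2 of labelled db/m lay within the labelled db/db range, and replicates 1 and 3 lay below it. The difference was -0.57 ± 0.24 (adjusted p = 0.284), and a second Slc4a9 probe gave -0.32 ± 0.20 with the same arrays low.

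The 3 proton pump subunits of the set also had lower means in labelled db/m. Atp6v0d2, a membrane-sector subunit of the pump in intercalated cells and osteoclasts, gave 0.38, 0.31 and 0.58 in labelled db/m and 0.84, 0.70 and 0.64 in labelled db/db. The groups did not overlap, and replicate 2 of labelled db/m was the lowest array rather than the nearest to the other group. The difference was -0.30 ± 0.12 (adjusted p = 0.271). Its second probe separated the groups as well, with -2.60, -2.54 and -2.51 against -2.03, -2.10 and -2.19. With SDs of 0.05 and 0.08 this was the tightest pair of groups among the members, and the difference was -0.44 ± 0.10 (95% interval -0.68 to -0.20, adjusted p = 0.240). Atp6v1g3, the kidney form of the G subunit in the pump's stalk (probe at chr1:140185743-140185802), gave -0.43, -0.52 and -0.68 against -0.23, -0.42 and -0.20. The groups again did not overlap, but replicate 1 of labelled db/m and replicate 2 of labelled db/db differed by little, and the difference was -0.26 ± 0.12 (adjusted p = 0.308). Atp6v1b1, the B1 subunit whose human counterpart is mutated in distal renal tubular acidosis with deafness, varied most of the 3. Its arrays read -0.73, -0.52 and -1.40 in labelled db/m and -0.67, -0.53 and -0.20 in labelled db/db, so that the groups overlapped. The difference of -0.41 ± 0.25 (adjusted p = 0.388) rested largely on replicate 3 of labelled db/m, since it was -0.16 without that array.

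Among the ammonia transporters, Rhbg on the basolateral side read 3.08, 3.51 and 3.15 in labelled db/m and 3.62, 3.71 and 3.55 in labelled db/db. The groups did not overlap, replicate 2 of labelled db/m came within 0.1 of the lowest labelled db/db array, and the difference was -0.38 ± 0.14 (adjusted p = 0.263). Rhcg, present on both the apical and basolateral sides (probe at chr7:86738278-86738337), read 4.85, 4.77 and 4.78 against 5.24, 5.01 and 4.91. Its 3 arrays labelled db/m were close together (SD 0.04), and its groups did not overlap. The difference was -0.25 ± 0.12 (adjusted p = 0.313). It was -0.086 with quantile normalization and -0.085 in the deposited matrix, so that the size of the Rhcg difference depended on the scaling. On the 1 slide that carried both groups, a single pair of mice, the Rhcg difference was -0.06 with the reported scaling.

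Foxi1, which switches on several of the other members, was the member with the smallest difference. Its probe lies at chr11:34104352-34104411 and read 2.42, 2.47 and 2.58 in labelled db/m and 2.35, 2.71 and 2.61 in labelled db/db. The groups overlapped over most of their range, and the difference was -0.07 ± 0.13 (95% interval -0.38 to 0.25, adjusted p = 0.794). The interval leaves room for a difference as large as that of Rhcg or Atp6v1g3, and under quantile normalization the value was 0.02.

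**Figure D2:**
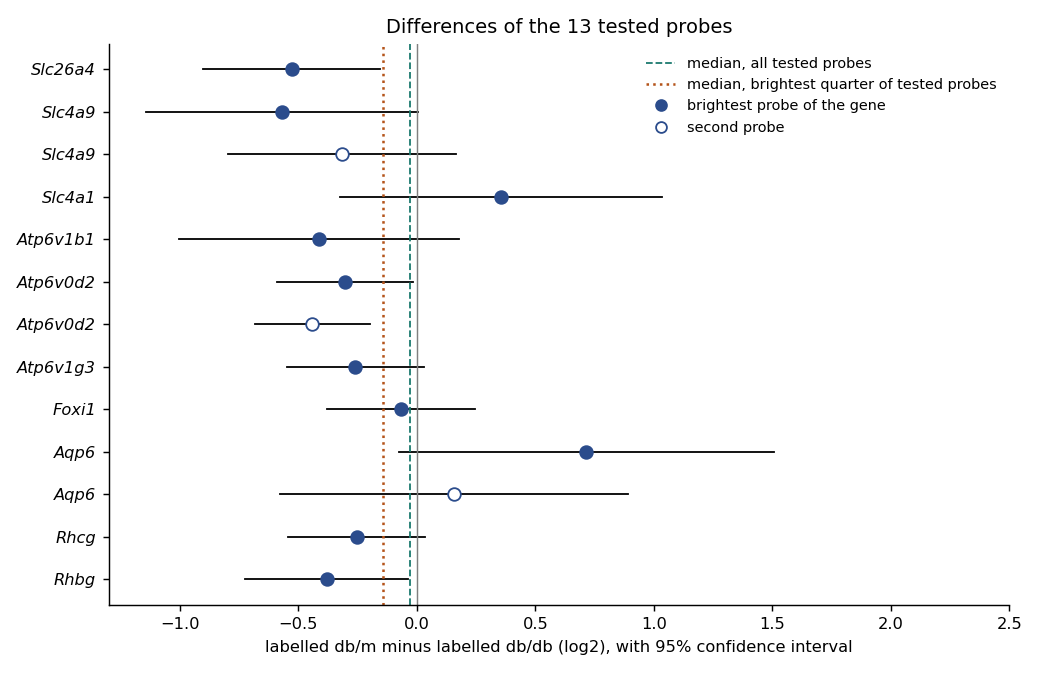
Difference in log2 signal, labelled db/m minus labelled db/db, for the 13 tested probes, with limma's 95% confidence interval as a horizontal line and n = 3 arrays per group. Filled points are the brightest probe of a gene and open points a second probe, and the dashed and dotted lines mark the median over all tested probes (-0.03) and over the brightest 25% (-0.14). The intervals of Slc26a4, Rhbg and both Atp6v0d2 probes lie below 0, and those of Slc4a1 and Aqp6 include 0.

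Slc4a1 and Aqp6 differed from the other members in which arrays were high. Slc4a1, the basolateral exchanger AE1 of type A cells and also band 3 of red cells, read 3.06, 1.92 and 2.76 in labelled db/m and 2.36, 2.07 and 2.25 in labelled db/db. Replicates 1 and 3 of labelled db/m were above every other array, and replicate 2 was below every other. The difference of 0.35 ± 0.29 (adjusted p = 0.502) was therefore smaller than the spread within labelled db/m (SD 0.59). Aqp6, an aquaporin of acid-secreting intercalated cells that resides in intracellular vesicles with the V-ATPase and conducts anions, read 5.12, 3.81 and 4.88 against 4.03, 3.71 and 3.91. Again replicates 1 and 3 were the 2 highest arrays, and replicate 2 lay within the labelled db/db range. The difference was 0.71 ± 0.33 (95% interval -0.08 to 1.51, adjusted p = 0.308), the largest among the members in size. A second Aqp6 probe read -1.41, -1.09 and -1.70 against -2.13, -1.58 and -0.96, with a difference of 0.15 ± 0.31 (-0.03 with median centring) and neither replicate 1 nor 3 of labelled db/m at the top. The remaining Aqp6 probe was too dim on all 6 arrays to be tested.

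FOXI1 is a forkhead factor, and the promoters of the members in RefSeq (GRCm38.p6) were searched for the forkhead core TGTTTAC on either strand, within 250 bases before to 50 after the annotated start. Of the 6 members with an entry, 1 held it, as did 3.65% of all 32851 promoters. That was Atp6v1b1, a known target of the factor, and its promoter is shown here. The core is in capitals and begins 98 bases before the start, and the 250 bases before the start lie at chr6:83742767-83743016 on the plus strand of GRCm38.p6.
Atp6v1b1 promoter: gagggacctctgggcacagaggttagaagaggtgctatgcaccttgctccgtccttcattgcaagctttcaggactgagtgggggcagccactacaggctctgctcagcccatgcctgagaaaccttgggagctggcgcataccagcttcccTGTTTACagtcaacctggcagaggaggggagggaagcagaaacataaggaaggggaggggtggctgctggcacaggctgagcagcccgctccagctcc
A match is a string of letters and not a bound site, and its absence from the other promoters says only that these letters do not occur there.

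Read by array, the members fell into 3 descriptive patterns, which were drawn after the values were seen and carry no test. In the first, replicates 1 and 3 of labelled db/m were the 2 lowest of the 6 arrays, as for Slc26a4, Slc4a9, Rhbg and Atp6v1b1, and 22.4% of all tested probes behaved likewise. In the second, the same replicates were the 2 highest, as for Slc4a1 and Aqp6, and 12.3% of all tested probes did so. In the third, Atp6v0d2, Atp6v1g3 and Rhcg had all 3 arrays labelled db/m below all arrays labelled db/db, and replicate 2 was not the one nearest to labelled db/db. Such a separation, wherever replicate 2 lay, was seen in 16.4% of all tested probes. The share that also met the condition on replicate 2 was not counted, so the third pattern cannot be called particular to these genes. Replicate 2 of labelled db/m alone differed from the mean of labelled db/db by -0.41 for Atp6v0d2, -0.24 for Atp6v1g3 and -0.28 for Rhcg. For Slc4a9, Atp6v1b1 and Aqp6 the same comparison gave -0.06, -0.06 and -0.08, and for Slc26a4 and Slc4a1 -0.24 and -0.30. Foxi1 followed none of the patterns.

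Markers of other kidney cells moved with the same arrays. Of 9 principal cell markers, 5 had replicates 1 and 3 of labelled db/m as the 2 highest arrays, and the log2 of their summed level was 6.83, 5.73 and 6.80 in labelled db/m and 5.94, 5.91 and 5.70 in labelled db/db. Fxyd4, a regulator of the sodium pump in the collecting duct, read 5.68, 3.76 and 5.90 against 4.07, 3.62 and 3.70. Aqp4, the basolateral water channel of principal cells, read 2.76, 0.78 and 2.28 against 0.34, 0.24 and 0.80. In both, replicate 2 of labelled db/m lay at the level of labelled db/db. Their differences were 1.32 ± 0.54 (adjusted p = 0.279) and 1.48 ± 0.49 (adjusted p = 0.244), whereas Hsd11b2, which protects the mineralocorticoid receptor from glucocorticoids, differed by -0.41 ± 0.17 (adjusted p = 0.279). The list's median difference was 0.46.

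Genes of the inner medulla and of the response to hypertonicity, a list added after the data had been seen, showed the pattern in all 6 of its genes. Their log2 summed level was 7.81, 5.18 and 7.27 in labelled db/m and 6.32, 5.55 and 6.04 in labelled db/db. Slc14a2, the urea transporter of the inner medullary collecting duct, differed by 1.59 ± 0.52 (adjusted p = 0.242), and Nfat5, the transcription factor of the hypertonic response, by 0.84 ± 0.30 (adjusted p = 0.248). All 10 proximal tubule markers ran the other way, with replicates 1 and 3 of labelled db/m as the 2 lowest arrays and log2 summed levels of 10.13, 10.73 and 10.38 against 10.62, 10.80 and 10.68. Among them Slc22a8, an organic anion transporter, differed by -0.56 ± 0.21 (adjusted p = 0.261). The first pattern of the members was shared with the proximal tubule markers, and the second with the inner medulla genes and 5 of the 9 principal cell markers. Neither was particular to these lists. The first was also seen in 11 of 22 other V-ATPase subunits, 5 of 11 carbonic anhydrases, 3 of 6 podocyte markers and 1 principal cell marker. The second was also seen in 3 of 6 thick limb and 2 of 3 urothelium markers. Of all tested probes, 22.4% showed the first and 12.3% the second. Whether the depth of cortex in a sample has a part in the members' differences was not tested.

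**Figure D3:**
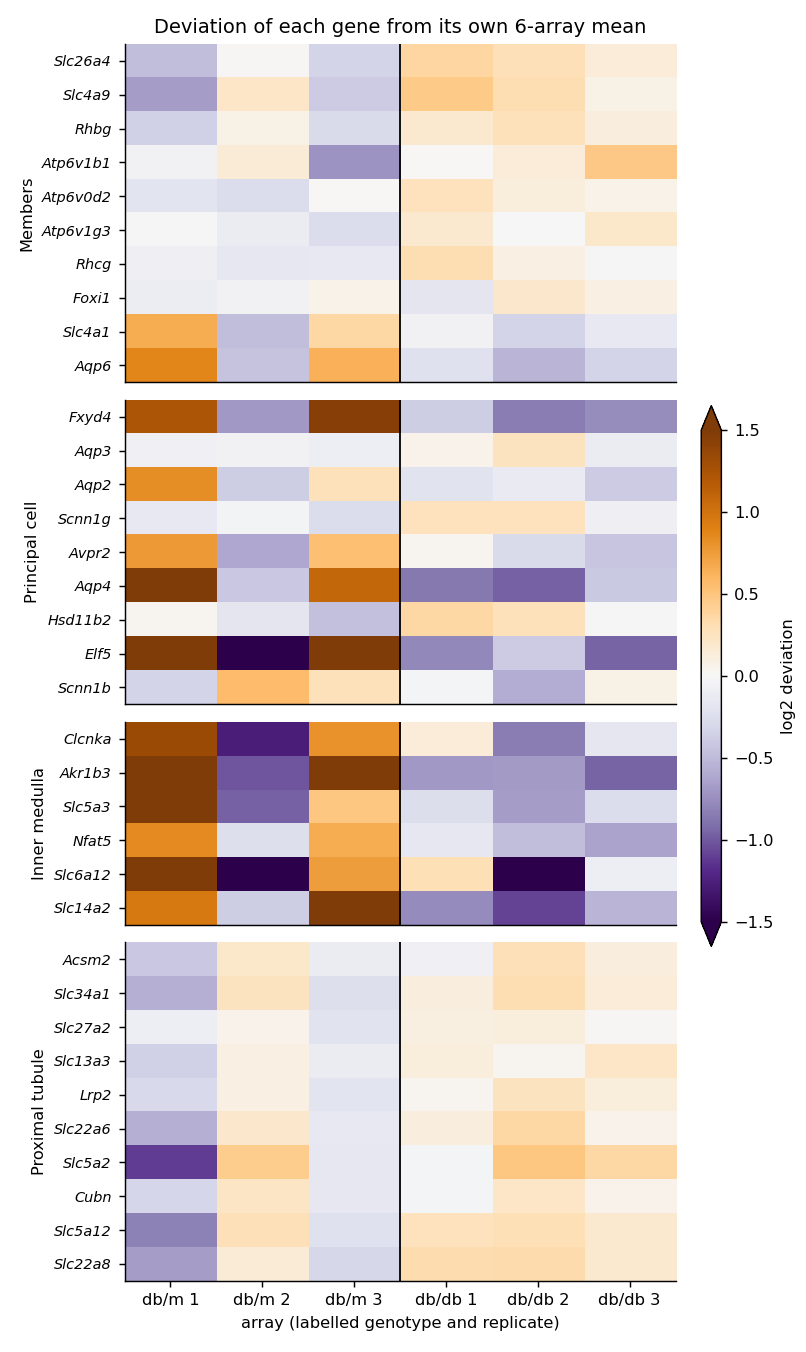
Deviation of each gene's normalized log2 signal from its own mean over the 6 arrays (colour, orange above and purple below, saturating at 1.5), with 1 column per array and 1 row per gene. The panels hold the 10 members, 9 principal cell markers, 6 inner medulla genes and 10 proximal tubule markers, and the black line divides the groups. Slc4a1 and Aqp6 share the orange cells of labelled db/m replicates 1 and 3 with the inner medulla genes, and Slc26a4, Slc4a9 and Rhbg share their purple cells with the proximal tubule markers.

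Other cell types were checked in the same way. Slc4a1 is also an erythroid gene. The 8 tested erythroid markers of 14 had a median difference of -0.20 (0.16 with slide as a block), with log2 summed levels of 9.89, 9.97 and 9.93 in labelled db/m and 10.32, 9.98 and 9.85 in labelled db/db. Klf1, the erythroid Krüppel-like factor, differed by -0.54 ± 0.17 (adjusted p = 0.240). The part of red cells in the Slc4a1 values was not tested. In the distal convoluted tubule list, Slc12a3, the thiazide-sensitive sodium chloride cotransporter, read 2.40, 2.67 and 2.16 against 3.25, 3.42 and 3.29. The groups were far apart relative to their spread, and the difference was -0.91 ± 0.15 (adjusted p = 0.240). Wnk1, a kinase upstream of the cotransporter, differed by -0.44 ± 0.14 (adjusted p = 0.240), and the list's median over 5 genes was -0.19. The medians of the 6 thick limb and 6 podocyte markers were 0.12 (-0.06 with median centring) and -0.15. In either list 0 genes had an unadjusted p under 0.05, which 17.7% of all tested probes had. Of 7 macrophage and immune markers, Ptprc (0.55 ± 0.16) and Adgre1 (0.37 ± 0.11) had positive differences and Cd74 (-0.45 ± 0.14) a negative one at an unadjusted p under 0.05. Of 3 tested urothelium markers of 6, Krt5, a basal keratin, differed by 1.53 ± 0.56 (adjusted p = 0.259).

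The wider acid-base machinery was read from lists chosen by function. The V-ATPase is assembled from many subunits, most of which every cell uses. Of 22 subunits and accessory proteins outside the set, 17 had a negative difference, with a list median of -0.16 (-0.055 with quantile normalization), against -0.14 for the brightest 25% of probes. At an unadjusted p under 0.05, 3 were lower and 0 higher, near the shares among the brightest 25% of probes (15.1% lower and 1.85% higher), and 0 passed the adjusted threshold. These were Atp6v1c1 (-0.49 ± 0.13, adjusted p = 0.240), the kidney-enriched Atp6v1c2 (-0.44 ± 0.12, adjusted p = 0.240) and Atp6v0d1 (-0.38 ± 0.14, adjusted p = 0.261). In these 3 of the 22, labelled db/m lay lower without overlap of the groups, and in 1 other it lay higher. Of all tested probes, 16.4% and 7.75% did so, and 26.4% of the brightest 25% lay lower without overlap. Atp6v0a4, the kidney form of the a subunit, read 4.21, 4.88 and 4.38 in labelled db/m and 4.80, 4.82 and 4.86 in labelled db/db, with replicates 1 and 3 low and replicate 2 at the top, and differed by -0.34 ± 0.18 (adjusted p = 0.351). The paralogs used by other cells gave -0.37 ± 0.22 for Atp6v1b2, beside -0.41 for Atp6v1b1, and -0.23 ± 0.21 for Atp6v1g1, beside -0.26 for Atp6v1g3. Atp6v0d1 with -0.38 stood beside -0.30 for Atp6v0d2. These pairs depended on the scaling, since with quantile normalization Atp6v1b2 was -0.19 beside -0.45 for Atp6v1b1, and Atp6v1g1 was -0.0083 beside -0.28 for Atp6v1g3. The pairs were not tested against each other.

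Carbonic anhydrases supply protons and bicarbonate from carbon dioxide. Of 13, 11 were tested, with a median difference of -0.21 (-0.016 with quantile normalization) and 7 negative values. Car2, the cytosolic enzyme on which intercalated cells rely, differed by -0.21 ± 0.11 (adjusted p = 0.365), or by -0.016 with quantile normalization and -0.019 in the deposited matrix. Car9, a membrane enzyme induced by hypoxia, differed by -0.71 ± 0.27 (adjusted p = 0.266), although on the slide with both groups it was 0.14, and Car1, a red cell enzyme, by 0.61 ± 0.25 (adjusted p = 0.279). Among 14 tested of 15 other intercalated cell genes, 7 differences were negative and 7 positive, and the median was 0.05, or -0.13 with median centring. In 6 of them replicates 1 and 3 of labelled db/m were the 2 highest arrays and in 4 the 2 lowest, so that other genes of these cells showed both of the members' patterns. Slc26a7, a chloride and bicarbonate exchanger of type A cells in the outer medulla, was well above background on all 3 arrays labelled db/m and on none labelled db/db. Its signal was 1.35-fold higher in labelled db/m with the dim arrays taken at no less than the lowest signal among probes well above background (limma adjusted p = 0.272 on those values). That is a log2 difference of 0.44, and another background correction gave 0.31, so that 1.35 is no lower bound. It entered the test through labelled db/m alone, so that its direction was set by the filter. Slc26a7 is nevertheless counted above among the 7 positive differences and among the 6 genes with replicates 1 and 3 highest. Without it the median of the list falls on Adgrf5, at -0.0049, so that the sign of that median rests on Slc26a7.

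Of 17 other acid-base and ammonia genes, 15 were tested and 11 differences were negative, with a median of -0.13 (-0.040 with quantile normalization). At an unadjusted p under 0.05, 4 were lower in labelled db/m and 0 higher, against 10.8% and 6.90% of all tested probes and 15.1% and 1.85% of the brightest 25%. Glud1, which releases ammonia from glutamate, differed by -0.54 ± 0.22 (adjusted p = 0.274), and Slc38a3, the basolateral glutamine transporter SNAT3 of the proximal tubule, by -0.52 ± 0.17 (adjusted p = 0.245). Slc9a2, a sodium proton exchanger, differed by -0.40 ± 0.15 (adjusted p = 0.259), and Slc4a2, the widely expressed anion exchanger AE2, by -0.28 ± 0.10 (adjusted p = 0.259). With quantile normalization Glud1 was -0.32 and Slc4a2 -0.19, and neither then had an unadjusted p under 0.05. In 7 of the 15 genes replicates 1 and 3 of labelled db/m were the 2 lowest arrays, against 22.4% of all tested probes.

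Slides divided the groups unevenly, since slide 1 held replicate 1 of labelled db/m and replicate 3 of labelled db/db, slide 2 the other arrays labelled db/m and slide 3 the other arrays labelled db/db. Within slide 1, Slc26a4 differed by -0.61, Slc4a9 by -0.76, Rhbg by -0.47, Atp6v1b1 by -0.53, Atp6v0d2 by -0.26, Atp6v1g3 by -0.23, Slc4a1 by 0.81 and Aqp6 by 1.20. These signs matched those over all arrays, but they rest on a single pair of mice, and with slide as a block 0 member probes had an unadjusted p under 0.05. Leaving out single arrays kept the sign of 9 of the 10 genes, Foxi1 being the exception. Without replicate 2 of labelled db/m, 7 member probes had an unadjusted p under 0.05. The share of all tested probes was then 23.4%, against 17.7% with all arrays. The difference of Aqp6 was 1.11, past the fold of 2. Of all tested probes, 1003 of 31429 then passed the fold of 2 with that p, against 287 of 29890 with all arrays. With replicates 1 and 3 of labelled db/m left out together, an alternative chosen after the data had been seen, 1 array labelled db/m is set against 3 labelled db/db, and the spread comes from labelled db/db alone. Then 0 member probes had an unadjusted p under 0.05, where 7.13% of all tested probes did, and this count says nothing about the members. The difference of Slc26a4 was then -0.24, that of Slc4a9 -0.06, that of Atp6v0d2 -0.41, that of Rhcg -0.28 and that of Rhbg -0.12, while Slc4a1 at -0.30 and Aqp6 at -0.08 changed sign.

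**Figure D4:**
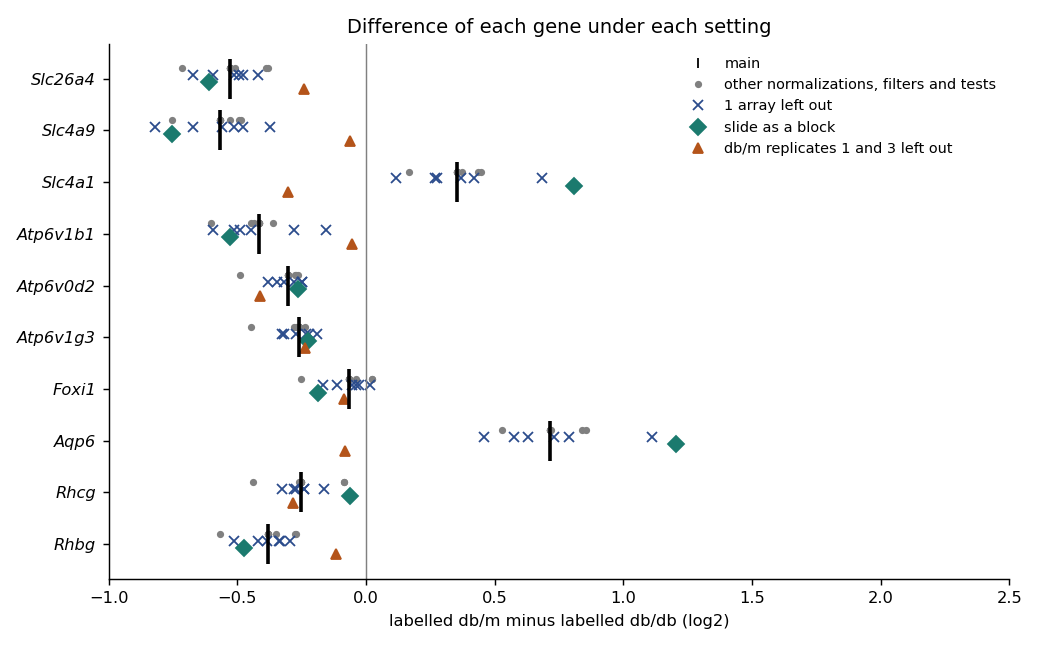
Difference of each gene (log2, labelled db/m minus labelled db/db) under each setting. Black bars give the value as reported, grey points other normalizations, filters and tests, crosses the fits with 1 array left out, diamonds the fit with slide as a block and triangles the fit without labelled db/m replicates 1 and 3. The triangles of Slc4a9, Atp6v1b1 and Aqp6 lie near 0 and that of Slc4a1 on the other side of it, whereas those of Atp6v0d2, Atp6v1g3 and Rhcg stay close to or beyond the reported value.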

How the data were processed

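Cy3-labelled cRNA from total RNA of mouse renal cortex was hybridised to 6 one-colour Agilent arrays, read with Agilent Feature Extraction 10.7.1.1 per the file headers. The authors deposited the spot intensity of each array, background-subtracted and not scaled between arrays, and a matrix of log2 values whose scaling is not given in the sources used here and which served as an alternative. In R 4.3.3 with limma 3.58.1, control and outlier-flagged spots were left out, spots of a probe were averaged, log2 intensity was taken, and each array's 75th percentile was subtracted. Of 56605 probes, 29890 were tested, those that stood well above background in every array of 1 group or both. Differences, SEs, 95% intervals and p values came from lmFit and eBayes (two-sided) without covariates, with Benjamini-Hochberg adjustment over all tested probes. The study names the screen of a fold of 2, but no normalization or test for the arrays. The arrays of a group were taken as separate mice, and their number limits the precision.

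The members and lists were chosen with earlier results of these data known. Named were the 10 members, each by its brightest tested probe, further probes where they differed in sign or had an unadjusted p under 0.05, a few V-ATPase and anion exchange paralogs, and from each list up to 6 genes with an unadjusted p under 0.05. Symbols came from the files and, by accession, for 32994 probes from RefSeq. Promoters came from RefSeq. Alternatives were other normalizations, background corrections, filters and variance models, the methods' t-test (the 2-group form of the ANOVA the study names), slide or replicate number as a block, and leaving out arrays.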

Additional observations from a re-analysis of the deposited data

How the results depend on the processing

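At an adjusted p under 0.05, 0 member probes were called under each of the 18 other settings. Probes outside the set did pass in some of them, most of all with 1 array left out. The counts were 222 without replicate 2 of labelled db/m, 129 without replicate 3 of labelled db/db and 10 without replicate 1 of labelled db/m. The count of 4 member probes at an unadjusted p under 0.05 was 9 with median centring and 0 with slide as a block. Of all tested probes, 22.3% and 9.71% passed in these 2 settings, against 17.7% as reported. With 1 array left out, the member count ran from 2 (without replicate 1 of labelled db/m, or replicate 1 or 2 of labelled db/db) to 7 (without replicate 2 of labelled db/m). The share of all tested probes ran from 7.74% to 24.3% in the same settings. The methods' t-test gave 3 member probes at an unadjusted p under 0.05, with 15.4% of all tested probes, and 0 after Benjamini-Hochberg adjustment. With quantile normalization 3 member probes passed, namely Slc26a4, the second Atp6v0d2 probe and Atp6v1g3, and 15.7% of all tested probes. With the replicate number as a block the count was 4, and 21.9% of all tested probes passed. The brighter Atp6v0d2 probe was no longer among the 4, and Aqp6, higher in labelled db/m, was added. Arrays of the same replicate number had correlations of deviations of 0.35, 0.15 and 0.05, which cannot show whether the numbers pair the samples. The count past the fold of 2 ran from 0 to 1 with 1 array left out, the 1 being Aqp6 without replicate 2 of labelled db/m. Over all tested probes that count ran from 151 to 1003 in the same settings, against 287 as reported. The median over the member genes (-0.28) was -0.47 with median centring, which also moved the median of all tested probes from -0.03 to -0.21 and the share of lower calls among probes at an unadjusted p under 0.05 from 61.0% to 86.5%. It was -0.18 without labelled db/m replicates 1 and 3, and -0.32 to -0.22 with 1 array left out.

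Slc26a4, Slc4a9, Atp6v1b1, Atp6v0d2, Atp6v1g3, Rhcg and Rhbg kept their sign under all 18 other settings, with Rhcg at -0.086 under quantile normalization. In several of these settings the sign could not change. The t-test, the other variance model, the other filters, the floor for dim arrays and the replicate block returned the reported differences of these genes. Without labelled db/m replicates 1 and 3, Slc4a1 was -0.30, Aqp6 -0.080 and the second Slc4a9 probe 0.094. Foxi1 was 0.024 with quantile normalization and 0.021 in the deposited matrix, and ran from -0.17 to 0.014 with 1 array left out, positive without replicate 2 of labelled db/db. The second Aqp6 probe was -0.032 with median centring and -0.46 with slide as a block, and ran from -0.13 to 0.45 with 1 array left out. With slide as a block, Car9 was 0.14, Hsd11b2 0.045, the erythroid median 0.16 and the immune marker median -0.054. With median centring, the median of the other intercalated cell genes was -0.13 and that of the thick limb -0.063. With 1 array left out, list medians ran from -0.32 to 0.0062 (erythroid), -0.11 to 0.26 (thick limb), -0.55 to 0.0036 (distal convoluted tubule) and -0.38 to 0.10 (podocyte). The causes were not tested. Under the slide block only slide 1 informs the comparison.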
